A study of Mus musculus with 2 samples.

Results

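The secreted WNT inhibitors Wif1, Dkk1, Dkk2, Dkk3, Sfrp1, Sfrp2, Sfrp4, Sfrp5, Frzb and Notum were followed in embryonic mouse ureters cultured with or without NOGGIN, an extracellular antagonist that captures bone morphogenetic proteins (BMPs) before they reach a receptor. Every probe whose gene name in the scanner files was 1 of these 10 symbols was taken, which gave 10 probes, 1 for each gene, out of 39429 probes on the array. All 10 passed the filter on dim probes, which kept 29638 probes for 22311 genes or unnamed features. The ureters came from wild-type NMRI embryos of mixed sex at E13.75 (days of embryonic development) and spent 18 h on membranes. The NOGGIN group received 10 µg/ml NOGGIN and the control group was cultured without it. From each sample 200 ng of total RNA was labelled. Each of 2 two-colour arrays held 1 NOGGIN and 1 control sample, with the dyes exchanged between the arrays. The question is which of these transcripts respond to a block of BMP signalling. The labels number the pairs but do not say that they came from separate cultures or litters. The p-values therefore rest only on the spread between these samples, pooled in part over all genes, and this spread may be technical.

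WNT proteins are secreted signals that bind Frizzled receptors, and in the canonical branch also the co-receptors Lrp5 and Lrp6, which stabilises beta-catenin and switches on genes together with TCF/LEF factors. Of the routes by which cells limit this signal outside the cell, 3 are described here. Wif1 and the SFRP proteins (Sfrp1, Sfrp2, Sfrp4, Sfrp5 and Frzb) bind the WNT protein itself, Dkk1 and Dkk2 occupy Lrp5 and Lrp6, and Notum removes the lipid that WNT proteins need for signalling. In the developing ureter, WNT signals from the epithelium act on the surrounding mesenchyme, and BMP4 made by that mesenchyme acts on smooth muscle and urothelial differentiation.

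The sources leave it uncertain which channel held which RNA. Read by the dye labels, the BMP target gene Id1 had normalized intensities of 26328 and 24686 in the channels labelled NOGGIN, against 5703 and 5851 in the channels labelled control, a mean log2 ratio of 2.14 ± 0.09 (SD, n = 2). In the authors' deposited table Id1 had signed fold changes of -4.65 and -4.53 under titles that set NOGGIN against control. NOGGIN captures BMPs, so a BMP target would be awaited to be lower with it. The deposited table has that direction for Id1, and the dye labels have the opposite one. Whether the labels were exchanged was not tested. Every sign given for the inhibitors follows the dye labels and sets the channel labelled NOGGIN against that labelled control. With the dye labels exchanged, every sign would turn and every size would stay. Which genes move with or against each other does not depend on this.

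The inhibitors did not move as a block. By the dye labels, Wif1 and Dkk2 were at least 1.5-fold higher under the NOGGIN label on both arrays, Sfrp1, Sfrp4 and Sfrp5 were at least 1.5-fold lower on both, and Dkk1, Dkk3, Sfrp2, Frzb and Notum passed in neither direction. Over all 22311 genes, 210 (0.941%) were higher by this rule, 278 (1.25%) lower and 488 (2.19%) past it in either direction, against 2, 3 and 5 of the 10 inhibitors. With median centring in place of loess, Wif1 and Sfrp4 still passed, while Dkk2, Sfrp1 and Sfrp5 each missed 1.5-fold on 1 array. Of all genes, 347 passed under median centring. No gene of the array passed an adjusted p of 0.05 (limma, Benjamini-Hochberg over all genes, 0%), so no inhibitor did either. At an unadjusted p of 0.05, 6 of the 10 inhibitors passed, against 1348 of all genes (6.04%). The median absolute log2 ratio was 0.72 over the inhibitors and 0.10 over all genes, while the SD between the arrays had a median of 0.23 over the inhibitors and 0.19 over all genes. The inhibitors were chosen with earlier results of these data known. All of them were well above background in every channel, which the filter did not require of all genes. Across all 22311 genes, which are not independent of each other, the ratios of the arrays correlated weakly (Pearson 0.18, Spearman -0.07), and 53 genes were at least 1.5-fold in opposite directions. In whole ureters, fewer cells of a type and less RNA per cell cannot be told apart.

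**Figure D1:**
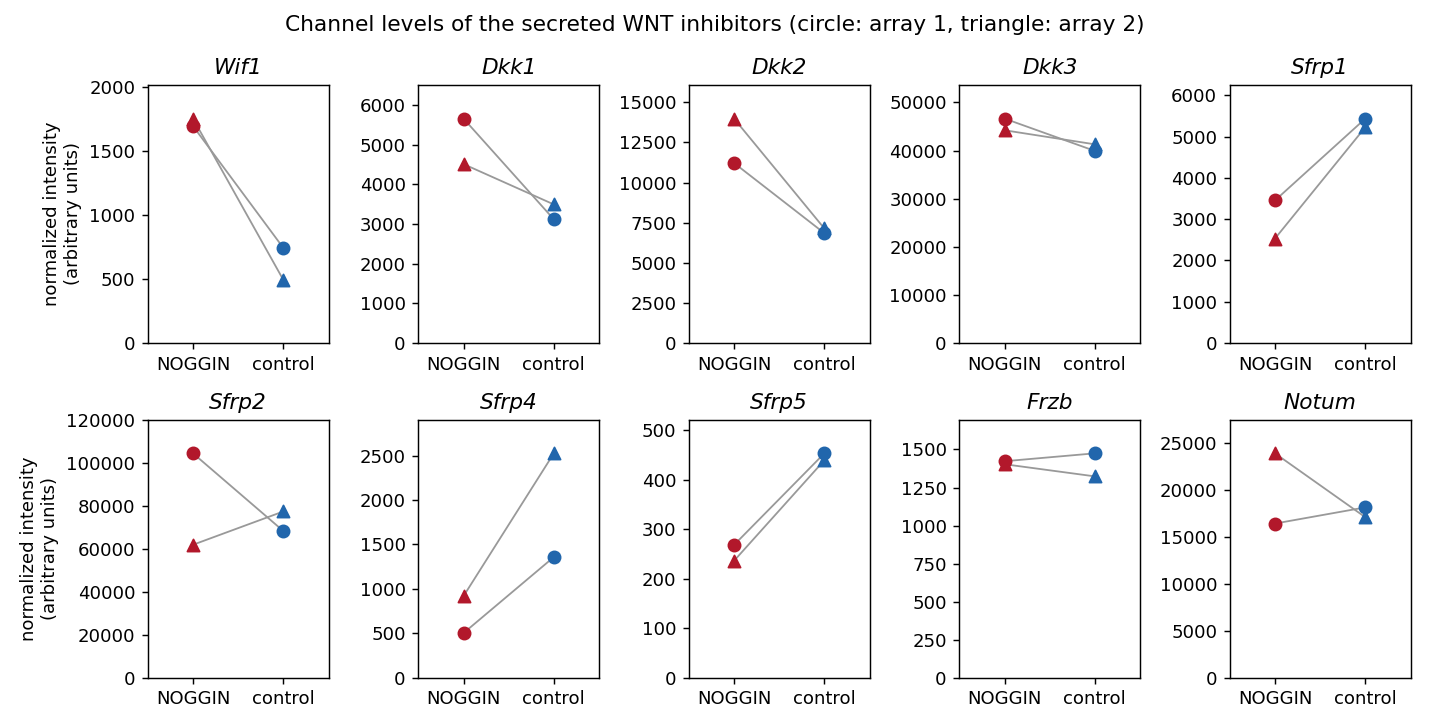
Normalized intensity (arbitrary units, a linear axis from 0 for each gene) of each inhibitor in the channel labelled NOGGIN and the channel labelled control, with array 1 as circles and array 2 as triangles, joined within an array. Wif1 and Dkk2 lie higher in both channels labelled NOGGIN and Sfrp1, Sfrp4 and Sfrp5 lie lower, while the points of Sfrp2, Frzb and Notum overlap.

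Promoter sequences are shown for 4 inhibitors, namely the pair with higher intensity in the channel labelled NOGGIN (Wif1, Dkk2), Dkk1 as the inhibitor with matches to the TCF/LEF motif, and Sfrp5 from the opposite side. Of the 10 genes, 6 had an entry in the promoter table (RefSeq, GRCm38.p6, 250 bases before and 50 after the start site): Wif1, Dkk1, Dkk2, Sfrp2, Sfrp5 and Frzb. Both strands were searched for the TCF/LEF motif CTTTGAA and its variants CTTTGAT and CTTTGTA and CTTTGTT, which 16.9% of all 32851 promoters of this length hold, for the GC-rich motif GGCGCC bound by SMAD proteins, which 11.9% hold, and for the TATA motif TATAAA, which 13.6% hold. Capitals mark the matches, and each sequence is written 5′ to 3′ on the gene's own strand. The promoters lie at chr10:121033754-121034053 (plus strand, Wif1), chr3:132085042-132085341 (plus strand, Dkk2), chr19:30549447-30549746 (minus strand, Dkk1) and chr19:42202203-42202502 (minus strand, Sfrp5).
Wif1: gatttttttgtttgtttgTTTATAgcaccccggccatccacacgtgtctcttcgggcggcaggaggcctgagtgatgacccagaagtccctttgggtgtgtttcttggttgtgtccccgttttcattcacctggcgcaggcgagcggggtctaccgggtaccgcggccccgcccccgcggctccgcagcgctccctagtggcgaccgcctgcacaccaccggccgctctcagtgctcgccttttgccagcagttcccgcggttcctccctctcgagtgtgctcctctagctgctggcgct
Dkk2: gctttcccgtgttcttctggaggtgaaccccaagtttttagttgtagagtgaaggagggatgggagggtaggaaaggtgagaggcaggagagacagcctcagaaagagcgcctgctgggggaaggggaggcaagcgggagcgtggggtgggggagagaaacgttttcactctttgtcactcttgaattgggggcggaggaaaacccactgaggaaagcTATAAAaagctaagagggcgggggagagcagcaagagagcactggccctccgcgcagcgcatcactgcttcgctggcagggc
Dkk1: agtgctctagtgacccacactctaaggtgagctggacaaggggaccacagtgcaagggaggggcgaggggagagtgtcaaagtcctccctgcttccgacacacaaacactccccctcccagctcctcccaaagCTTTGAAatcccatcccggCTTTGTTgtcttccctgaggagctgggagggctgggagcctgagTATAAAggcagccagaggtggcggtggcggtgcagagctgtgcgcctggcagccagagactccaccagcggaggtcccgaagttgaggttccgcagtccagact
Sfrp5: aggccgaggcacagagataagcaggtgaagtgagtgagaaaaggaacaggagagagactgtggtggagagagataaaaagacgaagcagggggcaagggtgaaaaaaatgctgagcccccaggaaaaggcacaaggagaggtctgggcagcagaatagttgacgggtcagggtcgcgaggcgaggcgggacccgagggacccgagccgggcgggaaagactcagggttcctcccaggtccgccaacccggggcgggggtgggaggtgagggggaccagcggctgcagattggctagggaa

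Dkk1 was the only 1 of the 6 promoters with the TCF/LEF motif, and it held 2 matches, CTTTGAA beginning at position -117 and CTTTGTT at position -98 from the start site. TATAAA began at -54 in the Dkk1 promoter and at -32 in the Dkk2 promoter, and in the Wif1 promoter it was on the opposite strand at -232. The other 3 promoters held none of these letters, and GGCGCC was in none of the 6. The number of CpG dinucleotides was 25 in the Wif1 promoter, 11 in that of Dkk2, 9 in that of Dkk1, 22 in that of Sfrp2, 15 in that of Sfrp5 and 20 in that of Frzb, against a median of 7 over all promoters. A match describes the letters of this window and says nothing of whether a factor binds there.

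Wif1, which binds WNT proteins through its WIF domain, had the largest ratio of the 10. Its normalized intensity was 1696 and 1754 in the channels labelled NOGGIN on arrays 1 and 2, against 743 and 493 in the channels labelled control. The groups did not overlap, and the arrays differed mainly in the channels labelled control. Red over green averaged 0.32 (log2) for Wif1 over the arrays. A dye effect and a difference between the sample pairs cannot be told apart in this value. The log2 ratios were 1.19 and 1.83, with a mean of 1.51 ± 0.45 (SD, n = 2) and a 95% interval from 0.98 to 2.04. This is 2.85-fold, the 57th highest ratio of 22311 genes, at an adjusted p of 0.125 (limma, unadjusted 0.000616). All 4 spots on each array gave ratios above 0. On array 1 the highest spot, at 1.65, was marked as an outlier and left out, and the others ran from 0.97 to 1.41. On array 2 the spots ran from 1.72 to 2.10. With the marked spot kept the mean was 1.57. The probe lies on chromosome 10, bases 120537079 to 120537138, plus strand (mm9, as the files give it).

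Among the DKK proteins, Dkk2, which binds Lrp5 and Lrp6 and can act as an inhibitor or a weak activator depending on the cell, was higher on both arrays. Dkk2 had intensities of 11220 and 13989 in the channels labelled NOGGIN, against 6843.5 and 7137 in the channels labelled control. The groups did not overlap. On the log2 scale the ratios were 0.71 and 0.97, with a mean of 0.84 ± 0.18 (SD, n = 2), a 95% interval from 0.42 to 1.27 and an adjusted p of 0.240 (limma). Its probe lies on chromosome 3, bases 131842357 to 131842416, plus strand (mm9).

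Dkk1, a potent inhibitor of Lrp5 and Lrp6 that is itself a WNT target in many tissues, was above the control channel on both arrays but reached 1.5-fold on array 1 alone. Its intensities were 5657 and 4509.5 in the channels labelled NOGGIN, against 3115 and 3491.5 in the channels labelled control. The groups did not overlap. Arrays 1 and 2 gave log2 ratios of 0.86 and 0.37, with a mean of 0.61 ± 0.35 (SD, n = 2), a 95% interval from 0.13 to 1.10 and an adjusted p of 0.558 (limma, unadjusted 0.0214). Its probe lies on chromosome 19, bases 30621424 to 30621483, minus strand (mm9).

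Dkk3, a divergent family member whose part in WNT inhibition is less clear, had intensities of 46637 and 44213 in the channels labelled NOGGIN, against 39914 and 41282 in the channels labelled control. The groups did not overlap, yet the ratios were small. Their log2 values were 0.22 and 0.10, with a mean of 0.16 ± 0.09 (SD, n = 2) and a 95% interval from -0.24 to 0.57. The interval, from the fit under loess, takes in 0 and leaves out a 1.5-fold change, which is 0.585 on this scale. Under median centring the Dkk3 ratios were 0.258 on array 1 and 0.008 on array 2, and no interval is given for them. The probe lies on chromosome 7, bases 119259556 to 119259615, minus strand (mm9).

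Of the SFRP proteins, which carry a Frizzled-like domain that binds WNT proteins, Sfrp4 had the lowest ratio. Sfrp4 intensities were 502 and 918 in the channels labelled NOGGIN, against 1359 and 2527 in the channels labelled control. Both channels were brighter on array 2, and the groups did not overlap. The log2 ratios were -1.44 and -1.46, with a mean of -1.45 ± 0.02 (SD, n = 2) and a 95% interval from -1.85 to -1.05. Sfrp4 was thus 2.73-fold lower in the channel labelled NOGGIN, the 52nd lowest ratio of 22311 genes, at an adjusted p of 0.0997 (limma, unadjusted 0.000186). The lowest adjusted p of any gene was 0.073, and 43 genes lay under 0.1, among them 1 inhibitor, Sfrp4. On array 1 the spot nearest to 0, at -1.004, was marked as an outlier and left out, and the others ran from -1.65 to -1.11. On array 2 the spots ran from -1.74 to -1.14. The SD of 0.02 between the arrays rests on that exclusion, and with the marked spot kept the mean was -1.39. The probe lies on chromosome 13, bases 19724488 to 19724547, plus strand (mm9).

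Sfrp1, closely related to Sfrp2 and Sfrp5, had intensities of 3452 and 2529 in the channels labelled NOGGIN, against 5436 and 5228 in the channels labelled control. The groups did not overlap. Arrays 1 and 2 gave log2 ratios of -0.66 and -1.05, with a mean of -0.85 ± 0.28 (SD, n = 2), a 95% interval from -1.31 to -0.40 and an adjusted p of 0.271 (limma). Its probe lies on chromosome 8, bases 24559438 to 24559497, plus strand (mm9).

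Sfrp5 had intensities of 268 and 236 in the channels labelled NOGGIN, against 454 and 440 in the channels labelled control, so the groups did not overlap. It was the inhibitor closest to background, with a mean signal before correction of at least 3.17 times the local background in the channels labelled NOGGIN and at least 4.98 times in the channels labelled control. In log2, the ratios were -0.76 and -0.90, with a mean of -0.83 ± 0.10 (SD, n = 2), a 95% interval from -1.23 to -0.42 and an adjusted p of 0.228 (limma). Its probe lies on chromosome 19, bases 42272509 to 42272568, minus strand (mm9).

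Sfrp2 and Frzb carry the same WNT-binding domain, and neither passed the 1.5-fold rule. Sfrp2 had intensities of 104619 and 61987 in the channels labelled NOGGIN, against 68389 and 77515 in the channels labelled control, and the groups overlapped. The log2 ratios had opposite signs, 0.61 on array 1 and -0.32 on array 2, with a mean of 0.15 ± 0.66 (SD, n = 2) and a 95% interval from -0.50 to 0.79. On both arrays the green dye was brighter for Sfrp2, and red over green averaged -0.47 (log2), the largest in size of the 10 inhibitors. A dye effect and a difference between the sample pairs cannot be told apart in this value. With an SD above its mean, no direction can be given for Sfrp2. Frzb, also known as Sfrp3, had intensities of 1423 and 1403 in the channels labelled NOGGIN, against 1475 and 1323 in the channels labelled control, and the groups overlapped. On the log2 scale the ratios were -0.05 and 0.08, with a mean of 0.02 ± 0.10 (SD, n = 2). The 95% interval under loess, from -0.39 to 0.42, left out a 1.5-fold change in either direction. Under median centring the Frzb ratios lay further apart, at 0.327 on array 1 and -0.335 on array 2, and no interval is given for them. The probes lie on chromosome 3, bases 83577864 to 83577923, plus strand (Sfrp2), and on chromosome 2, bases 80252582 to 80252641, minus strand (Frzb), both in mm9.

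Notum, the secreted enzyme that removes the WNT lipid and a feedback target of the pathway, had intensities of 16395 and 23863.5 in the channels labelled NOGGIN, against 18114 and 17065 in the channels labelled control. The groups overlapped. The log2 ratios were -0.14 and 0.48, with a mean of 0.17 ± 0.44 (SD, n = 2) and a 95% interval from -0.36 to 0.70. The red dye was brighter on both arrays, and red over green averaged 0.31 (log2). A dye effect and a difference between the sample pairs cannot be told apart in this value. The spots of array 1 spanned 0, from -0.60 to 0.31. The probe lies on chromosome 11, bases 120515209 to 120515268, minus strand (mm9).

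**Figure D2:**
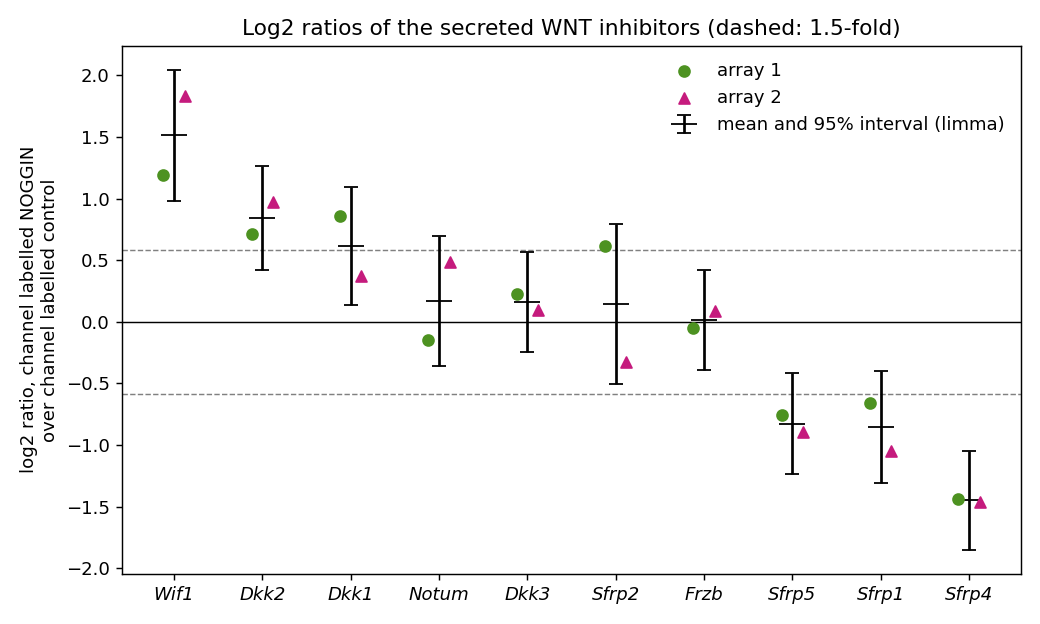
Log2 ratio (channel labelled NOGGIN over that labelled control) for each inhibitor, with the ratio on each of 2 arrays as points and the mean with its 95% limma interval. The intervals of Wif1, Dkk1 and Dkk2 lie above 0, those of Sfrp1, Sfrp4 and Sfrp5 below 0, and those of Dkk3, Sfrp2, Frzb and Notum take in 0.

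Set side by side, 4 inhibitors (Wif1, Dkk1, Dkk2 and Dkk3) were higher under the NOGGIN label on both arrays and 3 (Sfrp1, Sfrp4 and Sfrp5) were lower on both. With median centring in place of loess, Dkk1 had log2 ratios of 1.25 on array 1 and -0.09 on array 2, so its direction on array 2 depends on the normalization. In these 7 of 10 genes the channels did not overlap, which held for 31.9% of all genes. The median log2 ratio of the 10 was 0.15, against -0.01 for all genes, because members lay on both sides of 0. All 4 spots of each inhibitor were well above background in every channel of both arrays, and none was saturated. The SD between the 4 spots of a probe, marked spots included, ran from 0.16 to 0.40, with a median of 0.26.

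**Figure D3:**
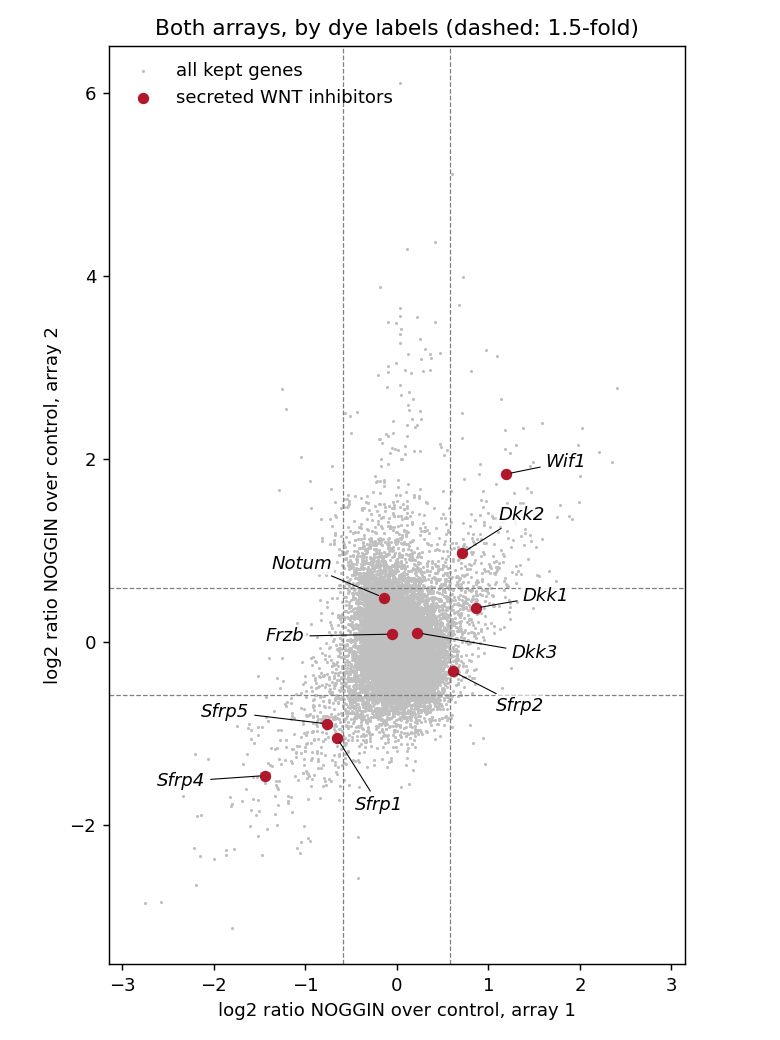
Log2 ratio of each gene on array 1 (horizontal) and array 2 (vertical), with the 10 inhibitors in colour and all other kept genes in grey; dashed lines mark 1.5-fold. Wif1 and Dkk2 lie past the lines at the upper right, Sfrp1, Sfrp4 and Sfrp5 at the lower left, and Sfrp2 has opposite signs on the arrays.

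For the 5 inhibitors past the 1.5-fold rule, the authors' deposited table gave the same split with each sign turned. In the authors' deposited table the signed fold changes on arrays 1 and 2 were -2.97 and -3.59 for Wif1 and -1.72 and -1.77 for Dkk2. On the other side the authors' deposited table had 2.68 and 3.09 for Sfrp4, 1.68 and 2.13 for Sfrp1, and 1.94 and 2.24 for Sfrp5. For Sfrp2 the authors' deposited table also had opposite signs, with -1.56 and 1.19. The values of Frzb in the authors' deposited table were close to no change, at 1.03 and 1.04, and the sign on array 2 was not turned.

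The rest of the pathway was read from 5 lists with 79 genes, of which 74 were measured. By the 1.5-fold rule, 3 were higher in the channel labelled NOGGIN, 5 were lower and 66 passed in neither direction, with a median log2 ratio of -0.15. Over all genes the shares were 0.941% higher and 1.25% lower. None passed an adjusted p of 0.05 (limma), as no gene of the array did.

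The WNT ligands, the proteins that Wif1, the SFRP proteins and Notum act on, had 16 of 19 genes measured, with 0 higher, 4 lower and 12 in neither class, and a median of -0.45. Wnt9a had intensities of 642 and 758 in the channels labelled NOGGIN, against 1628 and 1279 in the channels labelled control, a log2 ratio of -1.05 ± 0.42 (SD, n = 2). Wnt10a had a log2 ratio of -0.98 ± 0.20 and Wnt11 of -0.82 ± 0.21. The remaining ligand of the 4 was Wnt9b, an epithelial ligand of the kidney ducts, at -0.68 ± 0.02. At an unadjusted p of 0.05 (limma), 9 of the 16 ligands passed, against 6.04% of all genes. All of these were lower except Wnt7b, a ligand made by epithelia and named here after its values were seen, which had log2 ratios of 0.77 and 0.47. Among the lower ones, Wnt2, Wnt3 and Wnt7a had low intensities, from 76 to 243 over all channels.

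Among the receptors and co-receptors, 18 of 18 were measured and 1 was higher, Fzd9, a Frizzled receptor, with log2 ratios of 1.53 and 0.59. The receptors on which the DKK proteins act were in neither class, and they are named here after their values were seen. The log2 ratios were -0.27 ± 0.43 for Lrp5 and -0.19 ± 0.02 for Lrp6, and -0.11 ± 0.002 for Kremen1 and -0.35 ± 0.40 for Kremen2, the Kremen proteins being membrane partners of Dkk1 and Dkk2 (SD, n = 2). In the list of R-spondins and WNT release, 13 of 13 were measured and 1 was lower, Rspo1, a secreted enhancer of WNT signalling, at -0.88 ± 0.25.

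The list of other extracellular inhibitors had 7 of 9 genes measured, with 1 higher and 6 in neither class, and a median of -0.15. The higher one was Trabd2b, a membrane protease that cleaves WNT proteins, with intensities of 3730.5 and 3676 in the channels labelled NOGGIN, against 2369 and 2234 in the channels labelled control. Its log2 ratio was 0.69 ± 0.04 (SD, n = 2). The unmeasured genes, Dkk4 and Cer1, were not well above background by the filter.

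Of the 20 intracellular pathway and response genes, all measured, 1 was higher and 19 were in neither class. Sp5, a transcription factor gene directly switched on by beta-catenin, had log2 ratios of 1.52 and 1.04. Axin2, a feedback inhibitor often used as a readout of canonical WNT signalling and named here outside the rule, had -0.44 and 0.08, with a mean of -0.18 ± 0.36 (SD, n = 2), so its arrays had opposite signs.

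**Figure D4:**
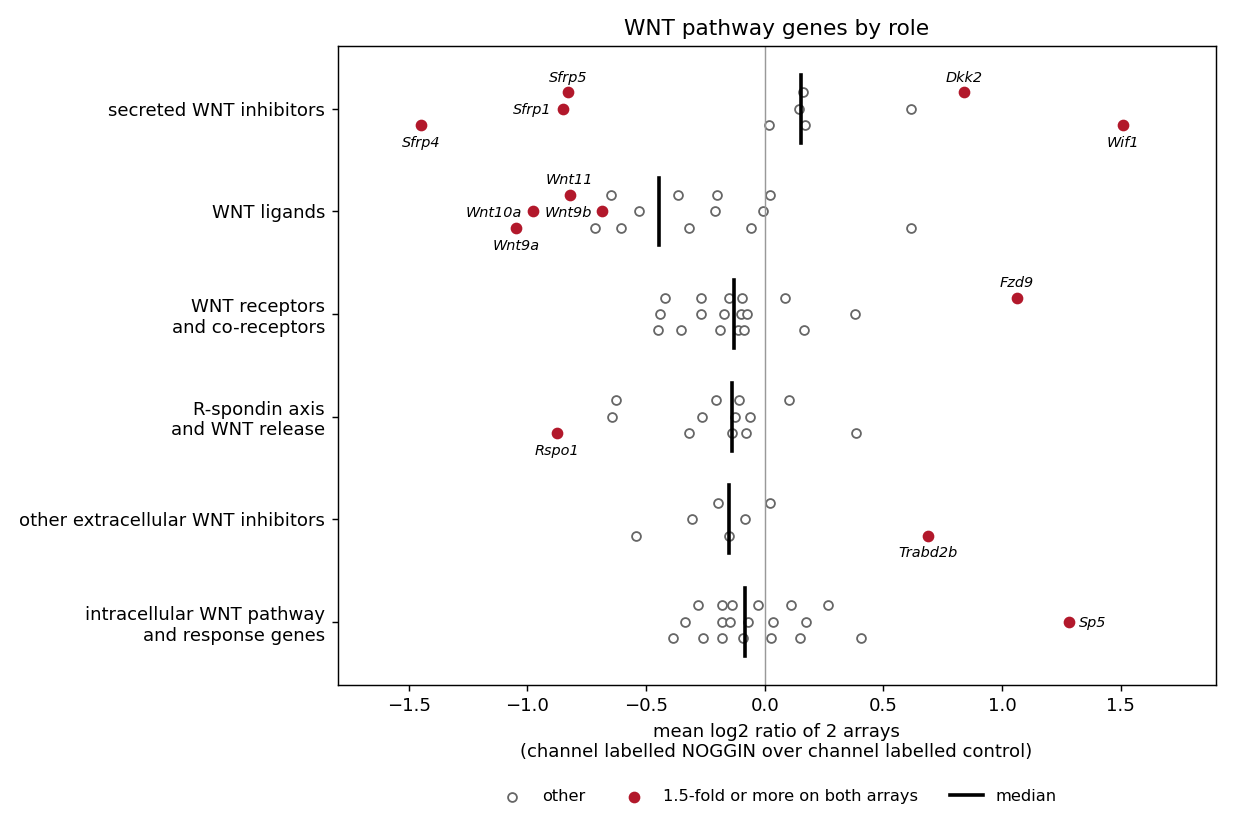
Mean log2 ratio of 2 arrays (channel labelled NOGGIN over that labelled control) for the secreted WNT inhibitors and 5 lists of other pathway genes, 1 point for each gene and a bar at each list's median. Filled points are at least 1.5-fold in 1 direction on both arrays; the inhibitors hold filled points on both sides of 0, and the WNT ligands only below 0.

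Lists of cell type markers were read by the same rule, which 2.19% of all genes passed in either direction. No marker passed an adjusted p of 0.05 (limma). All 7 smooth muscle markers were measured, and by the 1.5-fold rule 3 were lower in the channel labelled NOGGIN (Tagln, Cnn1 and Actg2) and 1 was higher (Myocd), with a median log2 ratio of -0.65. Their summed intensity was 109703 and 162760 in the channels labelled NOGGIN, against 257250 and 220089 in the channels labelled control. Such a sum is weighted toward the brightest probes. Acta2 alone had 57399 and 100310 in the channels labelled NOGGIN, against 150940 and 113740 in the channels labelled control. Acta2 missed the rule, with log2 ratios of -1.39 and -0.18 on arrays 1 and 2. All 7 ureteric mesenchyme markers were measured, with 2 higher (Tbx18 and Sox9), none lower and a median of -0.002, and summed to 139685 and 122905 in the channels labelled NOGGIN, against 125669 and 125645 in the channels labelled control. The part of such shifts in the values of the inhibitors was not tested.

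All 14 urothelial and ureteric epithelial markers were measured, with 1 higher (Upk3b), none lower and a median of 0.06, and summed to 295836 and 267992 in the channels labelled NOGGIN, against 242816 and 272968 in the channels labelled control. Endothelial, macrophage and nerve markers (6, 6 and 5 genes, all measured) had none past the 1.5-fold rule. Of 5 nephron progenitor markers 1 was lower (Meox1). Of 4 measured skeletal muscle markers 2 were lower (Myog and Myh3), while Myod1 was not well above background. The skeletal muscle list did not move as 1, since Actc1 was higher on both arrays without passing the rule (log2 ratios 0.82 and 0.56). Tnnt3 was close to 0, at -0.02 and -0.03. None of the 3 measured cartilage markers and none of the 3 red blood cell markers analysed here passed the rule, and Matn1 was not well above background.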

How the data were processed

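The deposited scanner files hold spot intensity values measured with Agilent Feature Extraction (10.7.3.1, per the submitters' processing notes). The mean signals carry no normalization; per the file headers, the software's processed signals have local background subtracted and the dyes balanced. A deposited log10 ratio, red over green, served only to find the direction of the authors' own values. The authors also deposited a signed score per probe, here found to be a linear fold change with medians of 1 and no value between -1 and 1; its log2 correlated with red over green across probes at 0.72 on array 1 and -0.80 on array 2, and how it was normalized is not stated there. By the labels, NOGGIN RNA was green (AlexaFluor555) on array 1 and red (AlexaFluor647) on array 2.

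Background was corrected by normexp (offset 50) and arrays were normalized by loess (limma 3.58.1, R 4.3.3). Control spots and spots marked as outliers (3.48% and 3.37%) were left out, and the 4 spots of a probe averaged. On each array, a kept probe had most spots well above background in 1 channel or more, and the brightest kept probe stood for a gene. Log2 ratios were fitted with lmFit and eBayes (1 residual and 4.35 prior degrees of freedom), two-sided, with Benjamini-Hochberg adjustment over all genes. Intensities of single channels come from loess followed by Aquantile, in arbitrary units, and are not compared between probes. The sums over marker lists add probes of unlike brightness and are weighted toward the brightest. The number of arrays limits the precision. Probes well above background made up 76.9% (NOGGIN) and 65.3% (control) on array 1, and 66.4% (NOGGIN) and 76.4% (control) on array 2. Names came from the files, and for 28328 probes (71.8%) from RefSeq accessions in a GRCm38.p6 table used for names only; probe positions are mm9, whose exon and UTR annotation was not used here. The fit was first tested on simulated data.

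The inhibitors, the other lists and the rules were chosen with earlier results of these data known. The text names all 10 inhibitors, Id1, up to 3 genes of each other pathway list past the 1.5-fold rule with the largest absolute ratio, and marker genes past that rule. Wnt2, Wnt3, Wnt7a, Wnt7b, Wnt9b, Lrp5, Lrp6, Kremen1, Kremen2, Axin2, Acta2, Actc1 and Tnnt3 fall outside the rule, as do the unmeasured genes. They were named after their values were seen. Figures were drawn with matplotlib 3.10.9.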

Additional observations from a re-analysis of the deposited data

How the results depend on the processing

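The reported value of Wif1, Dkk1, Dkk2, Dkk3, Sfrp1, Sfrp4 and Sfrp5, a mean over arrays, kept its sign under every alternative run, single arrays under loess included. Under median centring Dkk1 was 1.25 on array 1 and -0.09 on array 2. Over all of them Wif1 ranged from 1.19 to 1.83, Dkk2 from 0.71 to 0.97, Sfrp1 from -1.05 to -0.66, Sfrp4 from -1.57 to -1.39 and Sfrp5 from -1.06 to -0.76. Frzb changed sign, with -0.047 under the processed signals, -0.004 under median centring and -0.046 under the authors' deposited values. On single arrays under loess Frzb ran from -0.052 to 0.085, Sfrp2 from -0.32 to 0.61 and Notum from -0.14 to 0.48. The cause was not tested.

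The count of genes past an adjusted p of 0.05 (limma), 0 as reported, became 35 without background correction, 107 with an offset of 16, 114 under median centring, 100 where both channels had to be above background, 22 when outlier spots stayed in, 141 under a trended, robust variance, and 43 at the looser 0.1. Of the inhibitors, 2 passed with an offset of 16, median centring, both channels above background or a trended, robust variance, namely Wif1 (adjusted p 0.0322 to 0.046) and Sfrp4 (0.0309 to 0.0342), and 1 passed at an adjusted p of 0.1. Over all alternatives with a test the adjusted p (limma) ran from 0.0322 to 0.619 for Wif1 and from 0.0309 to 0.619 for Sfrp4.

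The 488 genes past the 1.5-fold rule became 852 with the processed signals, 347 under median centring and 149 at 2-fold. On single arrays the count was 961 for array 1 and 2631 for array 2. The 5 inhibitors past the 1.5-fold rule became 2 under median centring and at 2-fold, 1 higher (Wif1) and 1 lower (Sfrp4). Under median centring Dkk2 had 1.05 and 0.56 on the arrays, Sfrp1 -0.27 and -1.50 and Sfrp5 -0.55 and -1.14, each under 1.5-fold on 1 array. The number of higher inhibitors was 4 on array 1 alone, which adds Dkk1 and Sfrp2, and 2 on array 2 alone. No separate paired analysis was run, because each ratio already pairs the samples within its array.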

Other observations

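Sfrp4 also differed in level between the arrays, in both conditions. Its normalized intensity on array 2 was 1.83-fold that on array 1 in the channels labelled NOGGIN and 1.86-fold in the channels labelled control. A gap of at least 1.5-fold between the arrays in the same direction in both channels was found for 80 of 22311 genes (0.359%), and Sfrp4 was the only 1 of the 10 inhibitors among them. The ratio of Sfrp4 is taken within an array and was -1.44 and -1.46.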
